A study of Mus musculus with 15 samples.

Results

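The 9 genes described here encode enzymes and carriers with which the small intestine finishes the digestion of protein and takes up its products. They were named one by one as brush border peptidases and as peptide and amino acid transporters: Mep1a, Mep1b, Anpep, Enpep, Dpp4, Slc15a1, Slc6a19, Slc7a9 and Slc3a1. All 9 were found by symbol among the 37620 gene identifiers of the deposited tables, and all 9 passed the filter on low counts in both cohorts. The study sequenced RNA from the ileum, the last stretch of the small intestine, of 15 adult mice and asked what follows when Rfx6, a regulator of the hormone-secreting enteroendocrine cells, is removed from the adult gut. Every animal carried floxed Rfx6 and was given 10 mg of tamoxifen by gavage over a period of 5 days. Animals labelled mutant were Rfx6f/f; Vilin-CreERT2, in which a tamoxifen-inducible Cre recombinase is driven by a promoter of the intestinal epithelium, so cells outside the epithelium are not targeted. Controls lacked the recombinase. Tissue was taken 8 days after tamoxifen (3 control libraries, all Rfx6f/f, and 4 mutant) or 3 months after it (4 control libraries, of which 2 were Rfx6f/f and 2 Rfx6f/+, and 4 mutant). The labels give neither sex nor exact age, the protocol names a pair of RNA extraction methods without saying which sample had which, and each time point is its own cohort, so time and cohort cannot be told apart.

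Protein is cut in the gut lumen by pancreatic enzymes into short peptides. Peptidases anchored in the brush border of absorptive enterocytes shorten these further, and the apical membrane then takes up di- and tripeptides through a proton-coupled carrier and free amino acids through several carriers of different selectivity. Meprin alpha and beta (Mep1a, Mep1b) are metalloendopeptidases, aminopeptidase N (Anpep) and aminopeptidase A (Enpep) remove residues from the amino end, and dipeptidyl peptidase 4 (Dpp4) removes dipeptides and also inactivates the incretin hormones. Slc15a1 (PEPT1) carries di- and tripeptides, Slc6a19 (B0AT1) carries neutral amino acids, and Slc7a9 with its heavy chain Slc3a1 forms the exchanger of cystine and dibasic amino acids whose loss causes cystinuria.

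Enterocyte genes of this kind are known targets of HNF4, CDX and GATA factors, so the bases around their start sites are shown for 4 genes: the heavy and light chain of 1 exchanger, whose levels ran closest together among the transporters, and a peptide carrier and a meprin that share a motif with one of them. The windows come from RefSeq on GRCm38.p6 and run from 250 bases before to 50 bases after the start site, 5′ to 3′ on the strand of the gene. Capitals mark every match, on either strand, to the HNF4 motif CAAAGT, the CDX motif TTTAT or AGATAA, which GATA factors are known to bind, and neighbouring matches can overlap. Slc3a1 lies at chr17:85028097-85028396, plus strand, Slc7a9 (the upstream of its 2 windows) at chr7:35448842-35449141, plus strand, Slc15a1 at chr14:121505205-121505504, minus strand, and Mep1a at chr17:43502724-43503023, minus strand.
Slc3a1: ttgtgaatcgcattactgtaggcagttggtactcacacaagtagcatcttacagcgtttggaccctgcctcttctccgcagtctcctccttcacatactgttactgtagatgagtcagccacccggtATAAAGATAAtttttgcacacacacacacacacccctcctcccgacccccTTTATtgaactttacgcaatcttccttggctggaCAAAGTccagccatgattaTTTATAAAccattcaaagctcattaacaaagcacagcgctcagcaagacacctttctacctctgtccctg
Slc7a9: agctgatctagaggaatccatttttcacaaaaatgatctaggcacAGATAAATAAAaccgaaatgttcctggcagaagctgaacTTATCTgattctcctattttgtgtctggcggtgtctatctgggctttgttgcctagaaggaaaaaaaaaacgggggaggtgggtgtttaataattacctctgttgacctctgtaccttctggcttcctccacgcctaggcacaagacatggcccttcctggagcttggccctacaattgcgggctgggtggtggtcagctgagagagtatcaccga
Slc15a1: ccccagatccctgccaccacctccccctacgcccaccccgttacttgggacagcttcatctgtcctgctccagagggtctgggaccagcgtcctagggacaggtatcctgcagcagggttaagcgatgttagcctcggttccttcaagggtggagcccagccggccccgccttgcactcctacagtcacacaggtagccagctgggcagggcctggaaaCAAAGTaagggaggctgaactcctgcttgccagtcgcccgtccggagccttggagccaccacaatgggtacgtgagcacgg
Mep1a: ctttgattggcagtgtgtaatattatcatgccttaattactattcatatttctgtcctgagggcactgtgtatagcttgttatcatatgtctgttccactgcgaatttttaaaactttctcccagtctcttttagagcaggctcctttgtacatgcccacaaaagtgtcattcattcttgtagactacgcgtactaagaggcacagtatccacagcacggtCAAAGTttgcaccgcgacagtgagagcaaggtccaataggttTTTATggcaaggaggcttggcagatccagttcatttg

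Windows were read for 8 of the 9 genes, without Mep1b. CAAAGT occurred in 3 of these 8, at position -39 from the start site in Slc3a1, -31 in Slc15a1 and -29 in Mep1a. Of all 32851 promoter windows of that length, 14.4% held it. Matches to TTTAT were found in 5 members (40% of all windows) and to AGATAA in 3 (11.2%), namely Dpp4, Slc7a9 and Slc3a1. The windows of Anpep and Slc6a19 held none of the 3 motifs. A match describes letters in a window and was not tested as a binding site.

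Library totals ran from 30452485 to 54468586 counts at 8 days and from 26078462 to 36270306 counts at 3 months. Rfx6 itself did not fall: in counts per 1000000 counts (CPM) it stood at 1.54 ± 0.145 (SD, n = 3) in 8-day controls and 1.75 ± 0.276 (SD, n = 4) in libraries labelled mutant, and at 3 months at 1.46 to 1.74 against 2.26 to 3.33, a rise of 0.72 on the log2 scale (SE 0.17, adjusted p = 0.0347 by edgeR's quasi-likelihood test with Benjamini-Hochberg adjustment). That call was lost in 6 of the 8 fits that left out 1 library (all but those without replicate 2 or 4 labelled mutant) and with the Rfx6f/f controls alone (0.67, adjusted p = 0.239, edgeR). These values sum over the whole gene, and the floxed exons were not looked at by themselves. The whole-gene level of Rfx6 thus did not fall with the label, and it cannot show whether the floxed exons were lost. The groups are named by label only. The enteroendocrine hormone gene Gcg had 37.2 to 44.4 CPM in controls and 1.25 to 3.58 CPM in libraries labelled mutant at 8 days, and 38.6 to 69.0 CPM against no more than 0.17 CPM at 3 months. Nothing in the labels states how the samples of a group were separated, so p-values measure the spread between these samples.

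All 9 genes were abundant. Ranked by CPM per kilobase of exon (RPKM) among 25567 genes, Anpep stood between place 17 and place 94 over the 15 libraries, and Slc15a1, the least abundant of the 9, between 286 and 1252. Together they took 0.663 to 1.45% of a library's counts. On the per-length scale, controls at 8 days had a mean of 1346 RPKM for Anpep, followed by Enpep at 552, Mep1b at 459, Mep1a at 333, Slc6a19 at 198, Slc3a1 at 185, Dpp4 at 134, Slc7a9 at 118 and Slc15a1 at 109. The ranges of Slc6a19 and Slc3a1 overlapped, as did those of Slc7a9 and Slc15a1, while the other neighbours in this order were separate in all 3 libraries. In the 3-month controls Anpep (753 RPKM) and Mep1b (712) overlapped at the top, Enpep followed at 577 with a range that overlapped that of Mep1b, and Mep1a (247), Slc3a1 (204), Slc6a19 (167) and Dpp4 (155) formed a chain in which each overlapped the next. Slc7a9 (115) and Slc15a1 (79.0) were lowest there and separate from their neighbours. The peptidases thus held the upper places, and Dpp4 was the exception among them. In the libraries labelled mutant the same 2 genes, Anpep and Slc15a1, were highest and lowest by mean at both times.

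**Figure D1:**
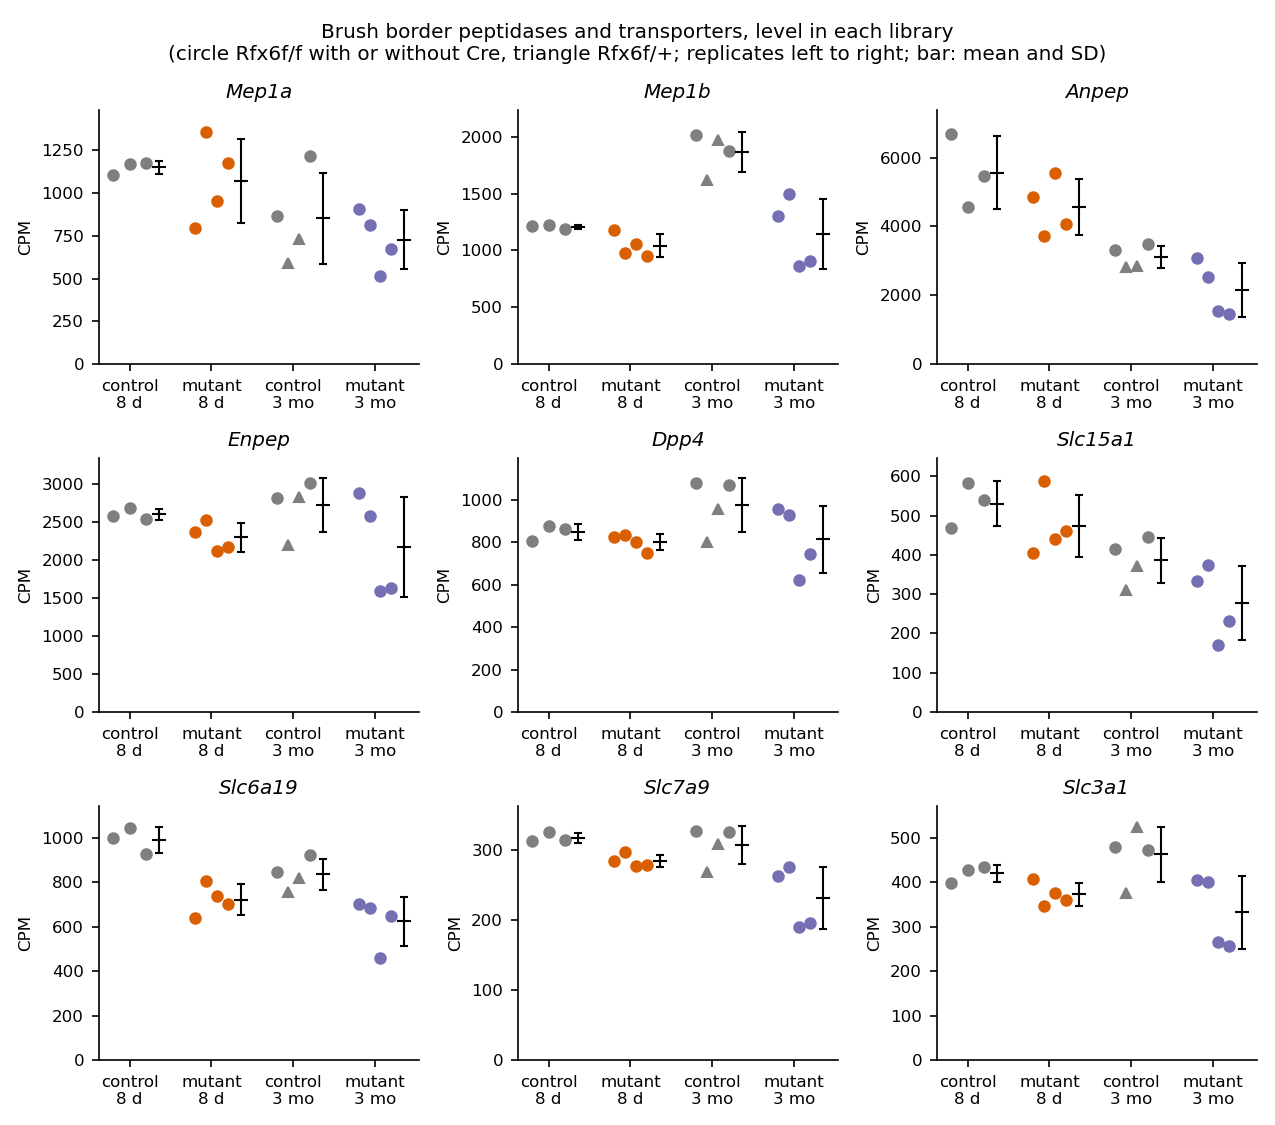
Level of each of the 9 genes in CPM (vertical axes start at 0) in every library of the 4 groups, with mean and SD; triangles are Rfx6f/+ controls. Mep1b and Slc6a19 are the genes whose libraries labelled mutant all lie below every control library in both cohorts.

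The meprins are given in turn. Whether their fold changes differ was not tested, and their 3-month intervals overlap. Mep1b (ENSMUSG00000024313), meprin beta, was the 1 gene of the 9 that changed by the test. At 3 months it had 2014, 1618, 1969.7 and 1873 CPM in control replicates 1 to 4, and 1307, 1495, 860.1 and 912 CPM in the libraries labelled mutant. All 4 of the latter were below all 4 controls, and replicates 3 and 4 were the lowest. Mep1b fell by 0.69 on the log2 scale (SE 0.18, 95% interval -1.11 to -0.28), to 61.9% of control, with an adjusted p of 0.0474 by edgeR's quasi-likelihood test. The call is close to the threshold: it was lost in 7 of the 8 fits that left out 1 library (all but the fit without replicate 2 labelled mutant), with adjusted p-values from 0.0208 to 0.116 over the 8, and with the Rfx6f/f controls alone (log2 fold change -0.76, adjusted p = 0.206). The fold change stayed between -0.85 and -0.58 in the 8 fits. At 8 days its levels were 1211, 1221 and 1185 CPM in controls and 1181, 982, 1061 and 947 CPM in libraries labelled mutant, again with no overlap but with a smaller difference of -0.21 (SE 0.09, adjusted p = 0.528, edgeR).

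Mep1a (ENSMUSG00000023914), meprin alpha, showed no such separation. It had 1107, 1168 and 1174 CPM in 8-day controls against 795, 1357, 953 and 1178 CPM in libraries labelled mutant, and 863, 593, 733 and 1218 CPM in 3-month controls against 908, 813, 516 and 674 CPM. The groups overlapped at both times. Its log2 fold changes were -0.11 (SE 0.16, adjusted p = 0.940, edgeR) and -0.21 (SE 0.24, adjusted p = 0.582), and the 95% intervals ran from -0.48 to 0.27 and from -0.76 to 0.33. Both depended on single libraries: the 8-day value was 0.01, -0.24 and -0.06 without replicate 1, 2 or 3 labelled mutant. The 3-month value was 0.01 without control replicate 4 and -0.36 without control replicate 2, and -0.34 and -0.08 without replicate 1 or 3 labelled mutant.

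Aminopeptidase N, Anpep (ENSMUSG00000039062), had 6689, 4552 and 5456 CPM in 8-day controls and 4855, 3725, 5551 and 4079.8 CPM in libraries labelled mutant. At 3 months controls had 3303, 2829, 2841 and 3486 CPM, and libraries labelled mutant had 3074, 2540.0, 1556 and 1466 CPM. Replicates 3 and 4 of the later mutant group were the lowest of the 15 libraries, while replicate 1 lay inside the control range. The differences were -0.29 (SE 0.17, adjusted p = 0.700, edgeR) and -0.51 (SE 0.24, adjusted p = 0.181), neither past the threshold. The 8-day difference was -0.14 without control replicate 1, the highest library. Aminopeptidase A, Enpep (ENSMUSG00000028024), had 2573, 2679 and 2545 CPM in 8-day controls, all above the 2369.9, 2525, 2122 and 2168 CPM of libraries labelled mutant. At 3 months its controls had 2821, 2203, 2832 and 3013 CPM, and the 2879.8, 2575, 1595 and 1629 CPM of the libraries labelled mutant overlapped them. The log2 fold changes were -0.18 (SE 0.08, adjusted p = 0.606, edgeR) and -0.31 (SE 0.21, adjusted p = 0.352). The 3-month value of Enpep was -0.19 without replicate 3 labelled mutant, -0.19 without replicate 4 and -0.47 without replicate 1.

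Dpp4 (ENSMUSG00000035000) showed the smallest difference of the 9 genes at 8 days: 808, 876 and 865 CPM in controls against 826, 834, 801 and 750.3 CPM. Its log2 fold change was -0.09 (SE 0.07, 95% interval -0.25 to 0.08). At 3 months it had 1078, 801, 957 and 1069 CPM in controls against 956, 930.2, 625 and 748 CPM, and the log2 fold change was -0.25 (SE 0.15, adjusted p = 0.314, edgeR). The groups overlapped both times. Dpp4 stood at -0.05 at 8 days without replicate 4 labelled mutant, and at -0.14 at 3 months without replicate 3 labelled mutant. Its exons share 232 bases with the opposite-strand gene Gm13561, and since the strand handling of the counting is not given in the sources used here, reads from this stretch cannot be told apart.

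The peptide carrier Slc15a1 (ENSMUSG00000025557) had 468, 584 and 538 CPM in 8-day controls against 404, 587, 441 and 460.4 CPM in libraries labelled mutant. At 3 months the values were 416, 311, 372 and 444 CPM against 332, 375, 169.9 and 231 CPM. The highest library labelled mutant exceeded at least 1 control at each time, so the groups overlapped. The log2 fold changes of -0.17 (SE 0.13, adjusted p = 0.825, edgeR) and -0.46 (SE 0.23, adjusted p = 0.220) did not pass the test, and the second has a 95% interval from -0.99 to 0.06. Without replicate 3 labelled mutant the 3-month value was -0.29. The 8-day value was -0.25 and -0.09 without control replicate 1 or 2, and -0.10 and -0.29 without replicate 1 or 2 labelled mutant.

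The neutral amino acid carrier Slc6a19 (ENSMUSG00000021565) had the largest difference of the 9 at 8 days. Its controls had 997, 1044 and 928 CPM and its libraries labelled mutant 639, 807, 736 and 702 CPM, so the highest of the latter was below the lowest control. The log2 fold change was -0.46 (SE 0.09, 95% interval -0.67 to -0.25), or 72.7% of control. By edgeR's quasi-likelihood test its unadjusted p was 8.2e-04, place 59 among 17493 genes, with an adjusted p of 0.241, while DESeq2 gave an adjusted p of 7.6e-04. At 3 months controls had 847, 757, 817 and 924 CPM and libraries labelled mutant 702, 682, 459 and 649 CPM, again with no overlap and with a like log2 difference of -0.41 (SE 0.14, adjusted p = 0.0856, edgeR). Slc6a19 was thus at about the same distance below its controls in both cohorts, and the tested difference between the cohorts was 0.03 with a 95% interval from -0.35 to 0.41.

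The cystine and dibasic amino acid exchanger is made of 2 chains. Slc7a9 (ENSMUSG00000030492), the transporting chain, had 312, 324 and 313 CPM in 8-day controls and 284, 296, 277 and 279 CPM in libraries labelled mutant. The groups did not overlap, and the spread within each was small (SD 6.91 and 8.77 CPM). The log2 fold change was -0.16 (SE 0.06, adjusted p = 0.490, edgeR). At 3 months its levels were 327, 269, 308 and 324 CPM against 263, 276, 190.2 and 195 CPM, and the groups overlapped. The log2 difference there was -0.40 (SE 0.14, adjusted p = 0.0947, edgeR). Slc3a1 (ENSMUSG00000024131), the heavy chain that brings it to the membrane, had 398, 428 and 435 CPM against 407, 347, 377 and 359 CPM at 8 days, and 479, 376, 524 and 471 CPM against 405, 400.4, 266 and 257 CPM at 3 months. Its groups overlapped at both times, and its log2 fold changes were -0.18 (SE 0.08, adjusted p = 0.554, edgeR) and -0.46 (SE 0.18, adjusted p = 0.122). Exons of Slc3a1 share 601 bases with Prepl on the opposite strand, so reads from this stretch cannot be told apart either.

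Read over all 9, the direction was the same and the calls were few. At 8 days 0 of the 9 were called by edgeR, where 16 of 17493 genes were called in all (0.0915%), while 4 had an unadjusted p under 0.05 (8.8% of all genes), DESeq2 called 1 (1.02% of all genes) and limma-voom 0 (0.0915%). All 9 log2 fold changes were negative, against 50.7% of all genes, with a median of -0.18 where that of all genes was -0.00197, and 4 of the 9 had every library labelled mutant below every control (3.7% of all genes). At 3 months 1 of the 9 was called, where 1586 of 17085 genes were called in all (9.28%, and 4.32% in the lower direction) by edgeR within the cohort, so the share called among the 9 was near the background of that fit. DESeq2 called 4 of the 9 (Mep1b, Slc6a19, Slc7a9 and Slc3a1), where it called 2983 of 17085 genes (17.5%), a joint edgeR fit of all 15 libraries called the same 4, where it called 2271 of 17959 (12.6%), and limma-voom called Mep1b alone (9.49% of all genes). All 9 were again negative (48.8% of all genes), with a median of -0.41 against 0.00769, 4 had an unadjusted p under 0.05 (29.4% of all genes), and 2 did not overlap (10.6%). The same direction prevailed in 10 marker genes of the whole epithelium. Of these, 10 had negative estimates at 8 days (median -0.12) and 8 at 3 months (median -0.18). Every library labelled mutant lay below every control for 2 of the 10 at 8 days and 3 at 3 months. The 9 genes share a cell type and were measured in the same libraries, so they are not 9 separate observations of the label. In bulk tissue, fewer enterocytes and less RNA per enterocyte cannot be told apart.

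**Figure D2:**
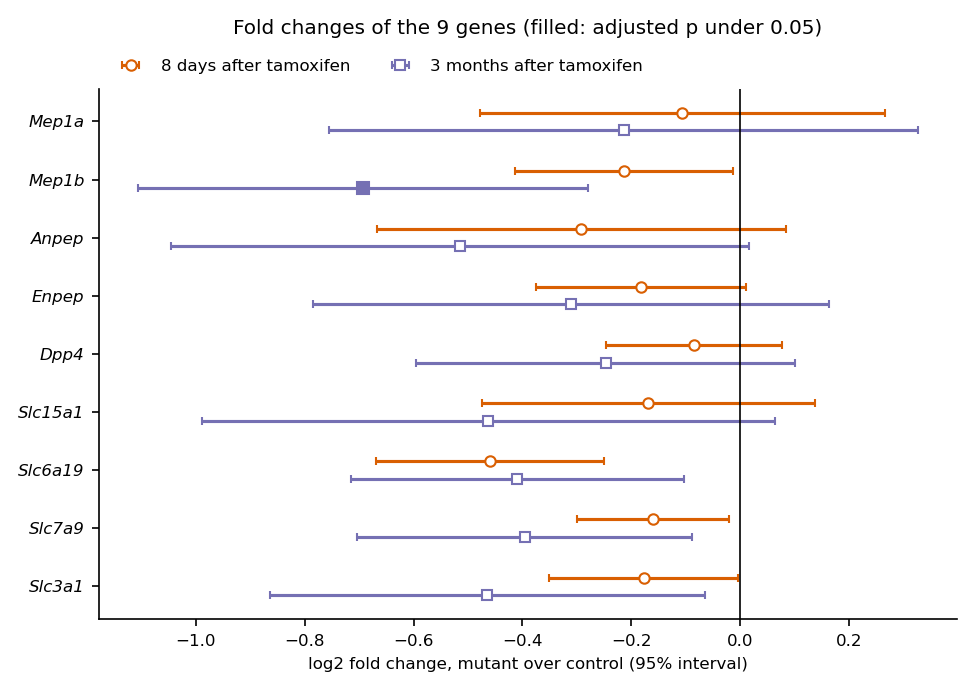
Log2 fold change, libraries labelled mutant over control, of each gene at 8 days (circles) and 3 months (squares), with 95% intervals; a filled symbol marks an adjusted p under 0.05. All 18 estimates lie below 0, and 1 of them, Mep1b at 3 months, is filled.

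Scaling bears on these values. When library size was replaced by the summed counts of 10 pan-epithelial genes, the median of all genes moved to 0.17 at 8 days and 0.19 at 3 months. The 9 genes moved by like amounts, to medians of -0.01 and -0.24, and 4 of the 9 had 8-day estimates just above 0. Relative to the median of all genes the members' median was -0.18 at 8 days under either scaling, and -0.42 at 3 months under either. Such a scaling moves all genes nearly alike, so this is no check of the members' place among them. Mep1b kept its call (log2 fold change -0.53, adjusted p = 0.0262, edgeR).

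Whether the label acted differently in the cohorts was tested in a fit of all 15 libraries. The test called 141 of 17959 genes (0.785%; 16.6% had an unadjusted p under 0.05) and 0 of the 9 by edgeR's quasi-likelihood test. Of the 9, 1 had an unadjusted p under 0.05, and DESeq2 (5.66% of all genes) and limma-voom (0.228%) also called 0. The estimate was more negative at 3 months for 8 of the 9 (51.9% of all genes), with a median difference of -0.24. This median rested in part on single 3-month libraries: it was -0.08, with 6 of the 9 negative, without replicate 3 labelled mutant, -0.15 without replicate 4 labelled mutant and -0.15 without control replicate 4. Mep1b had the largest, -0.50 (SE 0.23, 95% interval -0.98 to -0.02, adjusted p = 0.282, edgeR). The interval of Slc15a1 ran from -0.95 to 0.33 and that of Slc3a1 from -0.76 to 0.15. Both hold 0.

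The 3-month estimates rest on an uneven group. Replicates 3 and 4 labelled mutant were the 2 lowest of that group's 4 libraries for 9 of 9 genes. Their median over the genes was 57.4% and 60.0% of the control mean, against 87.5% and 89.8% for replicates 1 and 2. Replicate 3 was below every control for 9 genes and replicate 4 for 8, while replicates 1 and 2 were so for 3 genes each. Among the controls, replicate 2, an Rfx6f/+ animal, was lowest, with a median of 82.1% of the control mean. The 8-day group was more even: its 4 libraries labelled mutant had medians of 85.4 to 93.6% of control. Without replicate 3 the 3-month median log2 fold change of the 9 was -0.29, and without replicate 4 it was -0.36, in place of -0.41. The same 2 libraries also stood apart in the summed level of 6 of 19 marker lists, beyond all 6 other libraries of the cohort. Smooth muscle markers had 2656 and 2019 CPM in replicates 3 and 4 against 1393 to 1680 CPM in the other 6, tuft cell markers 36.9 and 43.4 against 10.1 to 29.2 CPM, villus tip markers 841 and 1174.5 against 503 to 690.5 CPM, and neuron and glia markers 20.9 and 16.1 against 11.8 to 15.02 CPM. Pan-epithelial markers (14004 and 14492 CPM) and distal ileum markers (2044 and 2686 CPM) were lowest there. Their part in the low levels of the 9 genes was not tested.

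**Figure D3:**
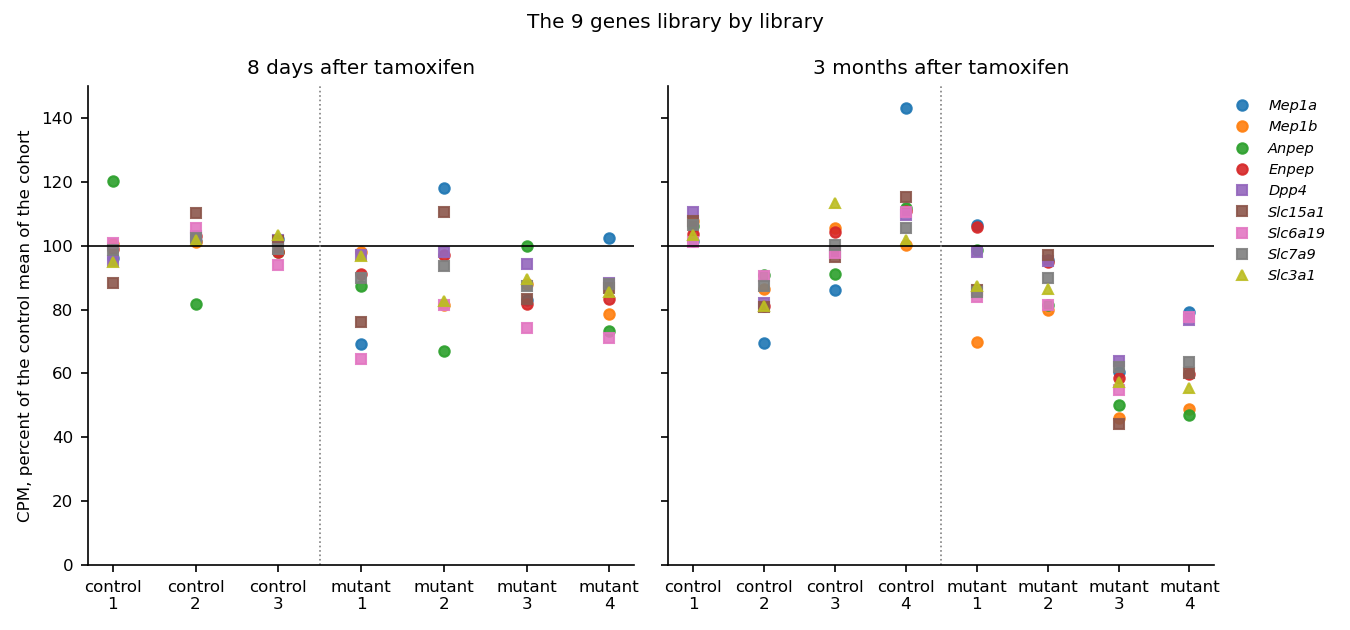
CPM of each gene in each library as a percentage of the control mean of its cohort (left 8 days, right 3 months; the line is 100%). In replicates 3 and 4 labelled mutant at 3 months the 9 genes lie together between 44.1 and 79.1%.

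The controls of the 3-month cohort were themselves of 2 genotypes. For all 9 genes the mean of the 2 Rfx6f/f controls was above that of the 2 Rfx6f/+ controls. As a ratio of the means the gap was widest for Mep1a (1.57 times), with 863 and 1218 CPM in Rfx6f/f and 593 and 733 CPM in Rfx6f/+, and narrowest for Slc3a1 (1.056 times, means 475 and 450.1 CPM). With 2 libraries in each, this is given without a test. With the Rfx6f/f controls alone the median log2 fold change of the 9 was -0.51. That fit called 0 of the 9 by edgeR, where it called 36 of 17552 genes in all.

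Ratios within a library do not depend on how libraries are scaled. Per length, Slc3a1 exceeded Slc7a9 in all 15 libraries, by 1.38 to 2.01 times, with means of 1.56 in 8-day controls, 1.55 in 8-day libraries labelled mutant, 1.77 in 3-month controls and 1.68 in 3-month libraries labelled mutant. In replicates 3 and 4, where both chains were lower, the ratio was 1.65 and 1.55. The control ratios of the cohorts did not overlap, at 1.505 to 1.63 and 1.65 to 2.01. The ratio of Mep1b to Mep1a had means of 1.38 and 1.36 at 8 days and of 3.05 and 2.07 at 3 months. Its 3-month controls had 3.07, 3.59, 3.53 and 2.02, and its libraries labelled mutant 1.89, 2.42, 2.19 and 1.78, so control replicate 4 lay within the mutant range. Control ratios of this pair did not overlap between the cohorts either, at 1.33 to 1.44 and 2.02 to 3.59. The ratio of Anpep to Enpep had means of 2.44 and 2.28 at 8 days and of 1.31 and 1.12 at 3 months. All 8 ratios of Anpep to Enpep in the later cohort, 1.02 to 1.46, were below all 7 of the earlier, 1.68 to 2.98, a difference between cohorts that is present in the controls.

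**Figure D4:**
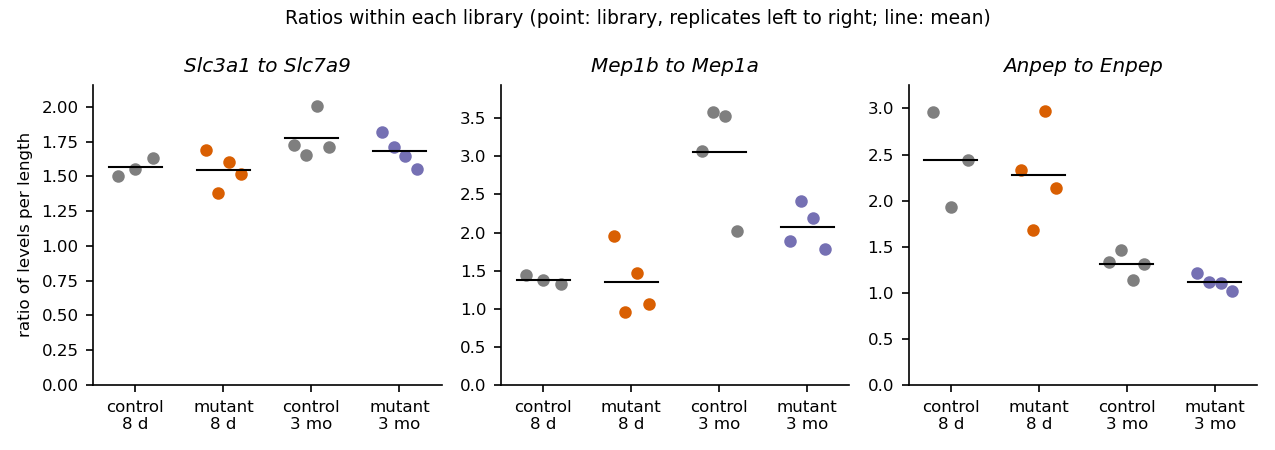
Ratio of levels per length within each library for 3 pairs of genes, by group, with the mean as a line (axes start at 0). Slc3a1 to Slc7a9 stays between 1.38 and 2.01 in all 15 libraries, and Anpep to Enpep is lower in every 3-month library than in every 8-day library. Mep1b to Mep1a overlaps between the cohorts in libraries labelled mutant, while its ratio is higher in every 3-month control than in every 8-day control.

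The rest of the pathway was read from 5 lists, against a background of 0.0915% of all genes called by edgeR at 8 days and 9.28% at 3 months, and of 8.8% and 29.4% at an unadjusted p under 0.05. Of 9 other brush border peptidases 8 were tested and 0 were called at either time by edgeR, with 0 at an unadjusted p under 0.05. Their median log2 fold changes were -0.08 at 8 days and -0.10 at 3 months. Of 5 cytosolic peptidases, which split the di- and tripeptides inside the cell, 0 were called at either time by edgeR, with 1 and 2 at an unadjusted p under 0.05. The lowest was Lap3, leucine aminopeptidase, at 3 months (log2 fold change -0.72, SE 0.23, adjusted p = 0.0773, edgeR), chosen after its values were seen. It passed the test without replicate 2 labelled mutant (log2 fold change -0.95, adjusted p = 0.0231, edgeR).

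Of 8 other apical carriers and their partners 7 were tested. By edgeR 0 were called at 8 days and 1 at 3 months. At an unadjusted p under 0.05 there were 2 and 2 (8.8% and 29.4% of all genes). Estimates were negative for 6 and positive for 1 (0.33) at 8 days, and negative for 3 and positive for 4 at 3 months. Slc9a3, the sodium-proton exchanger of the apical membrane that sustains the proton gradient used by Slc15a1, rose at 3 months by 1.43 on the log2 scale (SE 0.29, adjusted p = 0.0226, edgeR), from 18.3 to 34.6 CPM in controls to 58.0 to 123.9 CPM in libraries labelled mutant. It thus rose in the cohort in which the estimate of Slc15a1 was -0.46. Its call was lost without control replicate 1, 2 or 3, with adjusted p-values from 0.0139 to 0.0630 over the 8 fits without 1 library, and also in the joint fit and with the Rfx6f/f controls alone. Slc6a14, a carrier of neutral and cationic amino acids chosen after its values were seen, stood at -1.74 on the log2 scale against its 8-day controls (SE 0.35, adjusted p = 0.251, edgeR), with 194 to 276 CPM in controls and 28.3 to 98.8 CPM in libraries labelled mutant. It passed without replicate 3 labelled mutant (-1.47, adjusted p = 0.0219, edgeR). Its 3-month groups, 160.0 to 502 against 2.95 to 239 CPM, overlapped. Of 7 basolateral amino acid carriers, which pass the products on to the blood, 0 were called at either time by edgeR, with 0 and 2 at an unadjusted p under 0.05, and their medians were -0.11 and -0.07. Of 5 enterocyte transcription factors 0 were called by edgeR at either time, with 0 and 2 at an unadjusted p under 0.05, where 29.4% of all genes were so at 3 months. Over the 5 lists limma-voom likewise called Slc9a3 alone, where it called 0.0915% of all genes at 8 days and 9.49% at 3 months. DESeq2 called Slc6a14 at 8 days and Slc9a3, Lap3, Xpnpep1, Slc7a7 and Gata4 at 3 months, where it called 1.02% and 17.5% of all genes. Folh1 and Cltrn were the members of the lists below the filter on low counts.

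Markers of the tissue were read beside the 9 genes. No marker of the epithelial lists was at 0 in any group. The summed level of the 10 pan-epithelial genes ran from 17796 to 19491 CPM in 8-day controls and from 16029 to 17793 CPM in libraries labelled mutant, and from 16117 to 18184 against 14004 to 16314 CPM at 3 months, with 0 of the 10 called at either time by edgeR (2 and 4 at an unadjusted p under 0.05, 1 and 3 by DESeq2, 0 by limma-voom). Over all genes 8.8% and 29.4% had an unadjusted p under 0.05 at the earlier and later time, edgeR called 0.0915% and 9.28%, DESeq2 1.02% and 17.5%, and limma-voom 0.0915% and 9.49%. The summed level of the 9 peptidase and carrier genes ran from 12876 to 14564 against 10924 to 12319 CPM at 8 days and from 9756 to 12825 against 6236 to 10827 CPM at 3 months. At 8 days both sums were lower in every library labelled mutant than in every control, while at 3 months both were lower by mean and overlapped, and the part of epithelial content in the differences was not tested beyond the scaling given above. Markers of absorptive enterocytes went the other way at 3 months: their sum was 9598 to 12103 CPM in controls and 11293 to 18898 CPM in libraries labelled mutant, all 8 had positive estimates, and 1 of the 8, the retinol-binding protein gene Rbp2, was called by edgeR (log2 fold change 1.60), where 9.28% of all genes were, with 6 of the 8 at an unadjusted p under 0.05 (29.4% of all genes). DESeq2 called 5 of the 8 (Alpi, Apoa1, Apob, Fabp1 and Rbp2; 17.5% of all genes) and limma-voom Rbp2 (9.49%).

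Markers of position along the gut also moved with the 3-month label. Of 7 proximal markers 3 rose by edgeR (9.28% of all genes were called), among them the glucose transporter Slc2a2 (log2 fold change 4.23) and the apolipoprotein Apoa4 (3.42), and the list's sum was 266 to 507 CPM in controls and 2260.1 to 3978 CPM in libraries labelled mutant. DESeq2 called 5 of the 7 (17.5% of all genes) and limma-voom 3 (9.49%). Of 6 distal markers 2 fell by each of the 3 tools, the bile acid-binding protein Fabp6 (-1.44) and the bile acid carrier subunit Slc51b (-0.70), and the sum was 3859 to 4912 against 2044 to 4209 CPM. Of the other 4, not called by any of the 3 tools, 2 had positive estimates, up to 0.71. At 8 days 0 of the 13 were called by edgeR (0.0915% of all genes), with 0 proximal and 2 distal ones at an unadjusted p under 0.05 (8.8%), 1 called by DESeq2 (Slc51b; 1.02%) and 0 by limma-voom (0.0915%). Proximal sums overlapped there, at 1210.4 to 3208 and 657 to 3722 CPM. The part of the sampled position in the differences of the 9 genes was not tested. The 3-month libraries labelled mutant with the lowest peptidase levels, replicates 3 and 4, had proximal sums of 2889 and 3978 CPM, while replicates 1 and 2 had 3021 and 2260.1 CPM.

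Villus tip markers went opposite ways by mean in the cohorts. At 8 days their sum was 728 to 1028 CPM in controls and 527 to 768 CPM in libraries labelled mutant, which overlapped. There 0 of the 5 were called by edgeR, DESeq2 or limma-voom, while 3 had an unadjusted p under 0.05 (8.8% of all genes), namely Ada (log2 fold change -0.88), Slc28a2 (-0.76) and Egfr (-0.18). At 3 months the sum was 503 to 690.5 against 660 to 1174.5 CPM. Positive estimates were then found for 4 of the 5. Of the 5, 2 had an unadjusted p under 0.05 (29.4% of all genes) and 1 was called higher by edgeR (9.28%). DESeq2 (17.5%) and limma-voom (9.49%) called Nt5e alone. For the difference between cohorts edgeR called 1 (0.785%), DESeq2 called Egfr and Nt5e (5.66%) and limma-voom 0 (0.228%). The part of villus tip content in the differences of the 9 genes was not tested.

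Summed markers of other cell types also differed with the 3-month label. Of the 19 marker lists 5 had a sum that was higher in every library labelled mutant than in every control, and 2 had one that was lower, against 0 and 1 of 19 at 8 days. Of all single genes 10.6% were lower in this way at 3 months and 3.7% at 8 days, and the counts of lower lists are near these shares. The share of genes in the higher direction is not given here. Besides the proximal list, the higher ones were goblet cells (14714 to 16868 CPM in controls, 19179 to 21411 CPM in libraries labelled mutant), endothelium (71.5 to 77.3 against 80.03 to 110.2 CPM), fibroblasts (388 to 414 against 416 to 642 CPM) and enteroendocrine cells (143 to 220 against 287 to 368 CPM). The 5 enteroendocrine genes were split: the granule protein genes Chga (log2 fold change 1.58) and Chgb (1.78) rose and carry the sum, the hormone genes Gcg and Pyy fell (Pyy from 16.7 to 24.0 CPM in controls to no more than 0.0778 CPM), and Neurod1 was not called by edgeR. The lower ones were T cells (64.95 to 80.1 against 26.5 to 55.1 CPM) and B and plasma cells (2057 to 2921 against 1095.5 to 1601 CPM). All genes of both lists had negative estimates. Of the 5 T cell genes 3 were called by edgeR, and of the 4 B and plasma cell genes 1 (9.28% of all genes). For the latter list DESeq2 (17.5%) and limma-voom (9.49%) called Jchain alone. The part of these shifts in the 3-month differences of the 9 genes was not tested.

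**Figure D5:**
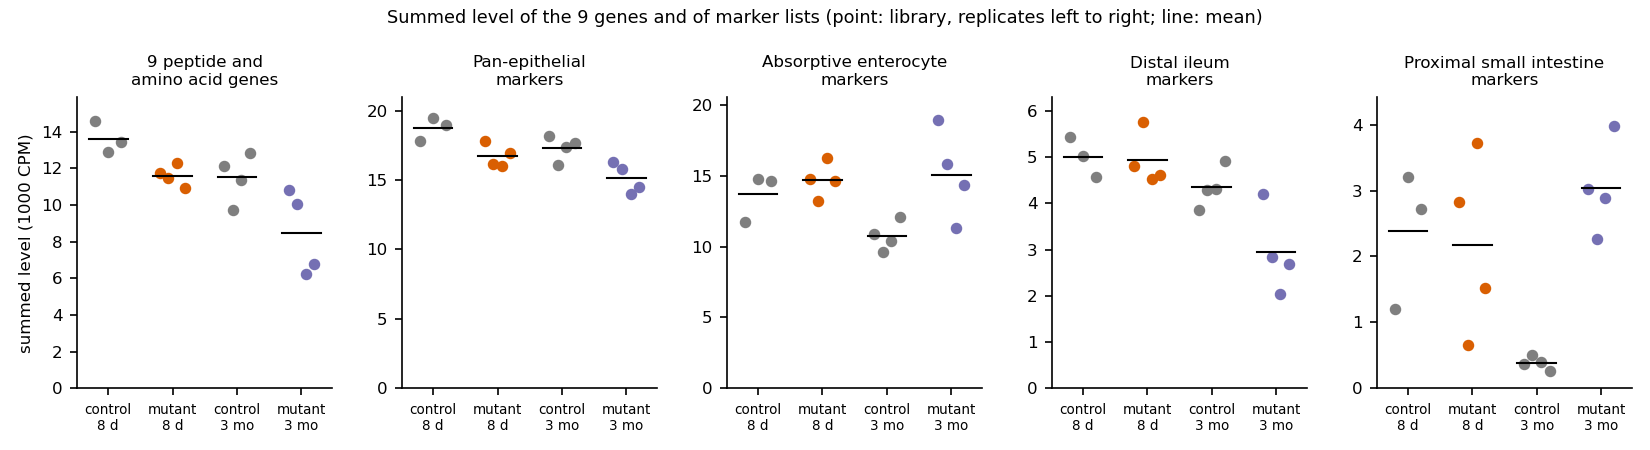
Summed level (in units of 1000 CPM, axes starting at 0) of the 9 genes and of 4 marker lists in every library, by group, with the mean as a line. At 3 months the sums of the 9 genes and of the distal markers are lower by mean in libraries labelled mutant, and those of the absorptive and proximal markers are higher.

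The genes with the most similar profiles were found by the root mean square difference of log2 CPM over the 15 libraries, centred within each cohort, among 16043 genes. As the members vary little, the measure is small for many genes, and it is given as a description over libraries that share depth and scaling. For Slc3a1 the closest gene was its partner Slc7a9, at 0.0964 log2 units, where the median over all genes was 0.33. Slc7a9 was also closest to Enpep (0.0995), and Enpep to Slc15a1 (0.16). Other members were thus among the 3 nearest genes of 6 of the 9. The nearest gene was Cd82 for Slc7a9 (0.0832) and for Slc6a19 (0.13), Me2 for Mep1b (0.0808), Ntn4 for Mep1a (0.0895), Gcnt4 for Dpp4 (0.0618) and Maf for Anpep (0.18). The next 2 places were taken by Malrd1 and H2-T3 for Slc15a1, Mep1b and Aplp1 for Anpep, H2-T3 and Capn1 for Dpp4, and Calml4 and Slc3a1 for Enpep. They were Immp2l and S100a10 for Slc6a19, Dpp4 and Gcnt4 for Slc7a9, Calml4 and Abcg2 for Slc3a1, Phgr1 and Naaladl1 for Mep1a, and Nmi and Slc3a1 for Mep1b. Dpp4, Slc6a19 and Mep1a thus had no member among their 3 nearest genes.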

How the data were processed

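The authors deposited unnormalised read counts for each Ensembl gene and library, as 1 table for each cohort. Per the submitters' processing notes, the tools include bcl2fastq 2.17.1.14, Bowtie 1.0.0, TopHat2 2.0.10, Bowtie2 2.1.0 and HTSeq 0.6.1, with the build mm9 and no roles given. Per the labels, the library protocol removed ribosomal RNA from total RNA, although the same labels give the molecule as polyA RNA. Columns were matched to samples by title. GENCODE M21 on GRCm38 paired 32897 of 37620 identifiers (87.45%) with symbols and gave exon lengths and overlaps. Identifiers without a symbol held 0.675% of counts. As the builds differ, the only coordinates printed are those of the RefSeq promoter windows on GRCm38.p6.

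Genes were filtered with filterByExpr (minimum count 10), scaled by TMM and tested within a cohort by quasi-likelihood in edgeR 4.0.16 under R 4.3.3, with the legacy estimator. The difference between cohorts came from a model of 4 group means over all 15 libraries. The Benjamini-Hochberg adjustment ran over all genes tested, and a gene was called below 0.05. SE is the size of the coefficient over the square root of F. CPM and RPKM were computed from the deposited counts with TMM over all 15 libraries, and errors of means are SD. Likeness used log2 CPM with a prior count of 2. Alternatives were DESeq2 1.42.0, limma-voom (limma 3.58.1), RLE scaling, TMM without the 20 most counted genes, scaling to pan-epithelial genes, no filter, 10 counts in every library, a joint fit, leaving out the Rfx6f/+ controls, and leaving out each library in turn. The edgeR tests were also run on simulated counts with known changes, and the outcome is not reported here. Figures used matplotlib 3.10.9.

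The genes named were the 9 members, Rfx6 and Gcg, called genes of the 5 pathway lists, and for each member the 3 genes most like it; Lap3, Slc6a14, Xpnpep1, Slc7a7, Gata4 and the marker genes named fall outside that rule. Results for some genes and motifs are not reported here. The members and lists were chosen with earlier results of these data known. Of 27 checks for an outlying library among the 9 genes in groups of 4, 0 passed Dixon's criterion, where chance gives 1 in 20. No per-sample column was left out (0).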

Additional observations from a re-analysis of the deposited data

How the results depend on the processing

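No paired analysis was possible because the labels give no replicate numbers shared between groups. Over the alternatives, 465 of 495 estimates of the 9 genes kept their direction and their side of the threshold, 7 gained a call, 8 lost one and 15 reversed. For all genes at 8 days (16 called) DESeq2 called 178, epithelial scaling 35, no filter 27 and the joint fit 25, and fits without 1 library 8 (control replicate 1 or 2) to 200 (mutant replicate 1). At 3 months (1586) DESeq2 called 2983, epithelial scaling 3361 (90.7% of them higher, against 53.5%) and Rfx6f/f controls only 36, and fits without 1 library 391 to 1521, and 391 to 856 without control replicate 1, 2 or 3 or mutant replicate 1 or 3. For the difference between cohorts (141) the counts were 1017 by DESeq2, 41 by limma-voom, 45 with epithelial scaling, 223 without a filter, 248 with 10 counts in every library and 5 with Rfx6f/f controls only, and 10 (control replicate 3 of 8 days) to 749 (mutant replicate 1 of 8 days) without 1 library. Of the 9 genes, DESeq2 called 1 at 8 days, DESeq2 and the joint fit each called 4 at 3 months (Mep1b, Slc6a19, Slc7a9 and Slc3a1), Rfx6f/f controls only gave 0, and fits without 1 library gave 0 at 8 days and 0 to 1 at 3 months. Epithelial scaling, which raised the median of all genes by 0.17 at 8 days, put above 0 the estimates of Slc15a1 (0.0119), Dpp4 (0.0864), Slc7a9 (0.0107), Mep1a (0.0720) and Slc9a3 (0.12), while the members' median relative to that of all genes was -0.18 with and without it. Rfx6f/f controls only reversed Slc6a19 in the difference (-0.0343), and limma-voom reversed Slc6a14 in the difference (-0.88). Without 1 library, ranges that crossed 0 were those of Mep1a at 8 days (-0.24 to 0.0126), at 3 months (-0.36 to 0.0113) and in the difference (-0.25 to 0.13), of Enpep (-0.31 to 0.00208), Slc6a19 (-0.0302 to 0.18) and Slc6a14 (-0.11 to 0.83) in the difference, and of Slc9a3 (-0.45 to 0.28) at 8 days. The cause was not tested.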
